A study of Homo sapiens with 4 samples.

Results

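The miR-17, miR-18 and miR-19 families are groups of related human miRNAs that are cut from shared primary transcripts. They were followed here in exosomes, which are small membrane vesicles shed by cells into the medium. Members were all entries of the probe table named miR-17, miR-18a, miR-18b, miR-19a, miR-19b, miR-20a, miR-20b, miR-93, miR-106a or miR-106b, with any arm or copy number. The rule found 9 of 1308 entries, which were miR-20a-3p, miR-20b-5p, miR-20b-3p and miR-93-5p of the miR-17 family, miR-18a-3p of the miR-18 family, and miR-19a-5p, miR-19a-3p, miR-19b-2-5p and miR-19b-3p of the miR-19 family. miR-17, miR-18b, miR-106a and miR-106b, the main arms miR-18a-5p and miR-20a-5p, and the opposite arms miR-93-3p and miR-19b-1-5p were not analysed here.

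The vesicles came from Hep3B, a line of human hepatocellular carcinoma that lacks the tumour suppressor p53, kept for 2 days in exosome-free medium. In 1 group the cells had 10 µM camptothecin, which blocks topoisomerase I and causes DNA strand breaks, and in the other they were untreated according to the labels, although the authors' ratio table has DMSO in its headers. Each group had 2 arrays of 1 colour (Cy5), and no label tells if they stem from separate cultures, so p-values measure only a spread that may be technical. The study used 1 cell line, and the vesicles were taken from the medium with a commercial kit, with no measure of their purity in the sources used here.

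In these families a miRNA recognises its target messenger RNAs mainly through its seed, bases 2 to 8 from the 5′ end. A hairpin gives a 5p and a 3p arm, of which usually the main arm is loaded into the silencing complex and the opposite arm is degraded. The transcript MIR17HG, which carries the hairpins on chromosome 13, is a known oncogene, transcribed under MYC and E2F factors. The miR-17 family is known to repress the cell cycle inhibitor CDKN1A and the factor E2F1.

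The mature sequences are shown because the main arm's seed sets the family and near-identical copies bear on what a probe can tell apart. Opposite arms carry other seeds and are placed here by the name of their hairpin. The sequences are those of RefSeq on build GRCh38.p14, where all 9 entries were matched by name, with the seed in capitals. The main arms of the miR-17 and miR-19 families had these sequences.
miR-20b-5p: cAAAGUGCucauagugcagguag
miR-93-5p: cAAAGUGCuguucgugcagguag
miR-19a-3p: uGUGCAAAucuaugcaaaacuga
miR-19b-3p: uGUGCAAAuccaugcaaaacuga
The opposite arms had the following ones.
miR-20a-3p: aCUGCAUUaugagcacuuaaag
miR-20b-3p: aCUGUAGUaugggcacuuccag
miR-18a-3p: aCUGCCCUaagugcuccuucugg
miR-19a-5p: aGUUUUGCauaguugcacuaca
miR-19b-2-5p: aGUUUUGCagguuugcauuuca

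The 9 entries held 6 different seeds. miR-20b-5p and miR-93-5p shared AAAGUGC, miR-19a-3p and miR-19b-3p shared GUGCAAA, and miR-19a-5p and miR-19b-2-5p shared GUUUUGC, while miR-20a-3p, miR-20b-3p and miR-18a-3p each had a seed that no other RefSeq mature miRNA of the table used here has. Counted from the 5′ end, miR-19a-3p and miR-19b-3p differed at 1 of 23 bases (U11C). miR-20b-5p differed from miR-93-5p at 3 bases (C10G, A11U and A13C), from miR-20a-5p at 2 (C1U and C10U) and from miR-17-5p at 2 (C10U and U12C). Probe sequences were not used here, so how far a probe also took up such close copies was not tested.

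By RefSeq the hairpins lie in 3 clusters, named here by their chromosome. The chromosome 13 cluster has 6 hairpins within 787 bases at chr13:91350605-91351391, plus strand, inside the noncoding gene MIR17HG, and gave miR-18a-3p, miR-19a-5p, miR-19a-3p and miR-20a-3p. The chromosome X cluster has 6 hairpins within 901 bases at chrX:134169378-134170278, minus strand, inside MIR106AHG, and gave miR-20b-5p, miR-20b-3p and miR-19b-2-5p. The chromosome 7 cluster has 3 hairpins within 515 bases at chr7:100093560-100094074, minus strand, inside MCM7, the gene of a DNA helicase subunit of replication, and gave miR-93-5p. miR-19b-3p has the same sequence in the first 2 clusters, at chr13:91351245-91351267 and chrX:134169683-134169705, so its signal cannot be assigned to either. Arms were compared in hairpins with both arms measured, and the hairpins of miR-19a and miR-19b-2 show how their arms, in capitals, lie in the precursor.
MIR19A: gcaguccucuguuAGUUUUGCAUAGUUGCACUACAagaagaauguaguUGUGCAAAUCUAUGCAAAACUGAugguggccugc
MIR19B2: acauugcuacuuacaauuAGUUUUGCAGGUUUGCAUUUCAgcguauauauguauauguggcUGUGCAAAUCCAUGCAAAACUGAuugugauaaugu

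All 9 entries were dim. Their deposited intensity (arbitrary units) ran from 117.6 to 175 on the camptothecin arrays and from 112.4 to 155.9 on the untreated arrays, while all entries ran from 108.8 to 8435 and from 91.4 to 12998, with medians of 170.3 and 158.3, camptothecin first. Averaged over the 4 arrays, the members lay between the 2.14 percentile of level (miR-20a-3p) and the 48.9 percentile (miR-19b-3p), 5 of them among the dimmest 327 entries and 4 among the next 327. No detection calls or background readings were used here, so the height of these probes over background is unknown, and the number of arrays limits the precision. Levels of different probes cannot be ranked against each other as amounts of RNA. The hepatocyte miRNAs miR-122-5p, miR-192-5p and miR-194-5p were as dim, between the 3.82 and 36.3 percentiles. All 3 were called higher as deposited, with log2 fold changes of 0.39, 0.23 and 0.27 (limma adjusted p = 0.00619, 0.0136 and 0.0298). So were 35.1% of all entries, 61.5% of the dimmest 327 and 39.1% of the next 327. Of the blood cell miRNAs that can enter with serum, miR-486-5p, miR-150-5p and miR-223-3p lay between the 46.3 and 76.8 percentiles. Their log2 fold changes were -0.015, 0.32 and 0.11, of which only that of miR-150-5p was called higher (limma adjusted p = 0.820, 0.0454 and 0.160). Their part in the results was not tested. miR-451a and miR-144-3p were not analysed here.

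**Figure D1:**
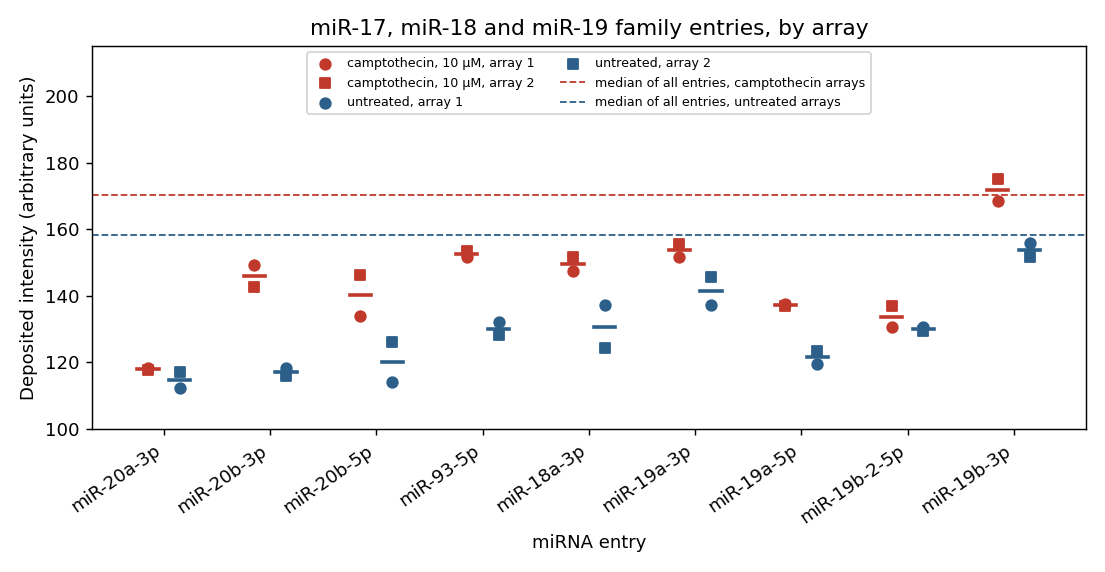
Deposited intensity (y axis, arbitrary units, from 100) of each of the 9 entries (x axis) on the 2 camptothecin arrays (red) and the 2 untreated arrays (blue), with short bars at the group means and dashed lines at the median of all entries. The points run from 112.4 to 175. In 8 of the 9 entries both camptothecin arrays lie above both untreated arrays, the exception being miR-19b-2-5p. The same holds for 59.4% of all entries, 90.2% of the dimmest 327 and 72.2% of the next 327. Without the scaling factor that each group's values appear to carry, all 9 lie lower after camptothecin.

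As deposited, 6 of the 9 entries were called higher after camptothecin and 0 lower (limma, Benjamini-Hochberg adjusted p under 0.05 over all 1308 entries). Changes were small, from 1.03-fold to 1.25-fold. Of all entries 46.3% were called in either direction and 35.1% as higher, and the share of higher calls was 61.5% among the dimmest 327 and 39.1% among the next 327. Among the members it was 3 of 5 in the first of these ranges, near the share of all entries there, and 3 of 4 in the second. The members' median log2 fold change was 0.18, against 0.11 over all entries, 0.21 over the dimmest 327 and 0.13 over the next 327. Both camptothecin arrays lay above both untreated arrays in 8 of the 9, as they did in 59.4% of all entries, 90.2% of the dimmest 327 and 72.2% of the next 327. The sign of these small changes depended on the scaling. Beside the values as deposited, the families are given with the 4 arrays quantile normalized together, with every array centred on its median, after normexp (a model that takes off an estimated background), and without the factor by which the values of each group appear to have been multiplied.

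In the miR-17 family the largest change was that of miR-20b-3p, the opposite arm of the miR-20b hairpin (chrX:134169813-134169834). It read 149.2 and 142.8 on the camptothecin arrays, against 118.3 and 115.8 on the untreated arrays. The groups were apart by more than the gap between replicates, and the fold was 1.25 (log2 fold change 0.32 ± 0.048 SE; limma adjusted p = 0.00857), at or above that of 86.9% of the dimmest 327 entries. It still passed after median centring (0.21; limma adjusted p = 0.029), but not after joint quantile normalization of the 4 arrays (0.13; limma adjusted p = 0.16) or after normexp background correction (0.33; limma adjusted p = 0.055).

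miR-93-5p, a main arm with the family's seed (chr7:100093815-100093837), read 151.6 and 153.3 on the camptothecin arrays, against 132 and 128.2 on the untreated arrays. Replicates were close and the groups apart, with a log2 fold change of 0.23 ± 0.043 SE (limma adjusted p = 0.0135). It was 0.072 and not past the test under joint quantile normalization (limma adjusted p = 0.335), and with the factor per group taken out it was -0.23.

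miR-20b-5p, the other measured main arm of this family (chrX:134169850-134169872), read 134 and 146.3 on the camptothecin arrays, against 114.1 and 126 on the untreated arrays. Replicates differed by 0.13 on the log2 scale with camptothecin and by 0.14 without, and its call was at the threshold (log2 fold change 0.22 ± 0.072 SE; limma adjusted p = 0.0499). A pseudocount of 16 was enough to end it, with a log2 fold change of 0.20 (limma adjusted p = 0.0501), while with robust variance it passed (limma adjusted p = 0.0352). Joint quantile normalization left 0.029 on the log2 scale.

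miR-20a-3p, the opposite arm of miR-20a (chr13:91351108-91351129), was the dimmest member. It read 118.2 and 117.6 on the camptothecin arrays, against 112.4 and 117.1 on the untreated arrays. The groups nearly touched and the difference did not pass (log2 fold change 0.040 ± 0.053 SE, 95% interval -0.092 to 0.17; limma adjusted p = 0.553). Of the dimmest 327 entries, 3.06% had a log2 fold change as low or lower, itself included. Its sign was negative under joint quantile normalization (-0.19), median centring (-0.065) and normexp correction (-0.13).

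The miR-18 family was represented by miR-18a-3p, the opposite arm of miR-18a (chr13:91350797-91350819). It read 147.5 and 151.6 on the camptothecin arrays, against 137.1 and 124.3 on the untreated arrays. The groups did not overlap, though the untreated arrays differed by 0.14 on the log2 scale, and the rise passed with a log2 fold change of 0.20 ± 0.060 SE (limma adjusted p = 0.0438). Without untreated replicate 2 the log2 fold change was 0.12, and without untreated replicate 1 it was 0.27. It kept its sign but did not pass under quantile normalization of all 4 arrays (0.036), centring (0.090) or normexp (0.14).

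In the miR-19 family the main arms miR-19a-3p (chr13:91350939-91350961) and miR-19b-3p differ by a single base. miR-19a-3p read 151.6 and 155.6 on the camptothecin arrays, against 137.1 and 145.7 on the untreated arrays. Its log2 fold change of 0.12 ± 0.049 SE missed the threshold (limma adjusted p = 0.0924) and was -0.013 under joint quantile normalization. miR-19b-3p was the brightest member, with 168.5 and 175 on the camptothecin arrays, against 155.9 and 151.7 on the untreated arrays. Its groups did not overlap and a rise was called, with a log2 fold change of 0.16 ± 0.044 SE (limma adjusted p = 0.0333). The call of miR-19b-3p was lost under joint quantile normalization (0.051), median centring (0.054) and normexp (0.12). Their 95% intervals, -0.0023 to 0.24 for miR-19a-3p and 0.050 to 0.27 for miR-19b-3p, overlap over most of their length, and the difference between them was not tested.

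The opposite arms of this family share their seed as well. miR-19a-5p (chr13:91350904-91350925) read 137.5 and 136.9 on the camptothecin arrays, against 119.6 and 123.5 on the untreated arrays. It passed with a log2 fold change of 0.18 ± 0.046 SE (limma adjusted p = 0.0287), below the median of 0.21 for the dimmest 327 entries, and turned to -0.023 under quantile normalization of all 4 arrays. miR-19b-2-5p (chrX:134169727-134169748) read 130.5 and 136.9 on the camptothecin arrays, against 130.7 and 129.5 on the untreated arrays. It was the one member whose groups overlapped, and it did not pass (log2 fold change 0.039 ± 0.048 SE, 95% interval -0.080 to 0.16; limma adjusted p = 0.524). Its log2 fold change was among the lowest 2.75% of the dimmest 327 entries, and it was negative under joint quantile normalization (-0.15), median centring (-0.066) and normexp (-0.18).

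**Figure D2:**
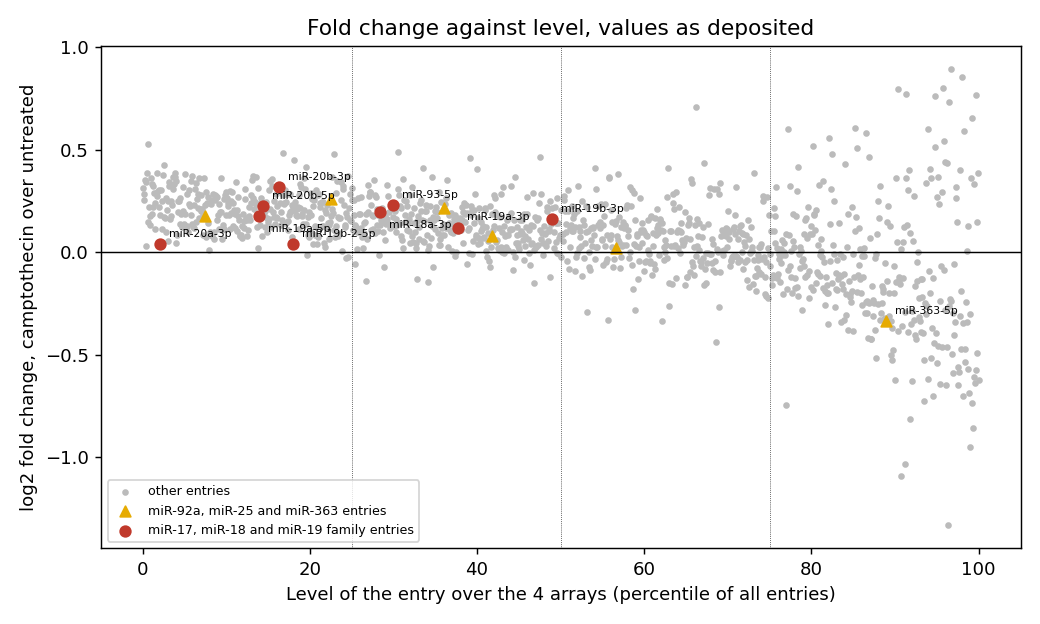
Log2 fold change of camptothecin over untreated (y axis) against the level of each of the 1308 entries over the 4 arrays (x axis, percentile; dotted lines part 4 ranges of 327 entries), values as deposited. The 9 family entries (red) lie at or below the 48.9 percentile among other entries of like level (grey), with miR-20a-3p and miR-19b-2-5p at the lower edge; the entries of miR-92a, miR-25 and miR-363 (yellow) are named in the legend, and signs of the red points depend on the scaling.

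The dependence on scaling bore on all 3 families. With all 4 arrays quantile normalized together, 0 of the 9 members passed, against 12.9% of all entries (limma). In that setting 3 members and 359 of the 1308 entries had an unadjusted p under 0.05. Of the members, 5 had a positive and 4 a negative log2 fold change, with a median of 0.029. After normexp correction 0 members passed, against 14.6% of all entries (limma), and 2 members and 420 of the 1308 entries had an unadjusted p under 0.05. With median centring 1 passed, against 25.2% of all entries. With the 75th percentile taken over entries at or above the median level, all 9 were called higher, against 68.2% of all entries. The median log2 fold change of all entries was 0.11 as deposited and -0.0092, 0.043, 0.0067 and 0.24 in these settings, in the same order. Leaving out any 1 array, 0 members passed (limma), while all 9 log2 fold changes stayed positive and their median was 0.15 to 0.19, with 1 residual degree of freedom left. Without camptothecin replicate 1, 0 members and 5.43% of all entries passed. Without camptothecin replicate 2 it was 0 members and 3.36%, and without untreated replicate 1 or untreated replicate 2 it was 0 members and 0.0765% in either case.

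The deposited values also show the size of the scaling itself. Every value is a whole multiple of a step, 0.585 on the camptothecin arrays and 0.427 on the untreated arrays (within 0.01 of a step). If each is the mean of 2 whole scanner readings times a group factor, that factor is 1.17 for camptothecin and 0.854 for untreated, which is a log2 difference of 0.45. Taken so, miR-93-5p had 129.5 and 131 scanner units on the camptothecin arrays, against 154.5 and 150 on the untreated arrays, and miR-20b-3p had 127.5 and 122, against 138.5 and 135.5. All 9 members were then lower after camptothecin, with log2 fold changes from -0.41 to -0.14, and all 9 were called lower, as were 89.1% of all entries (limma). The direction of every member's change thus differs between values with and without that factor.

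**Figure D3:**
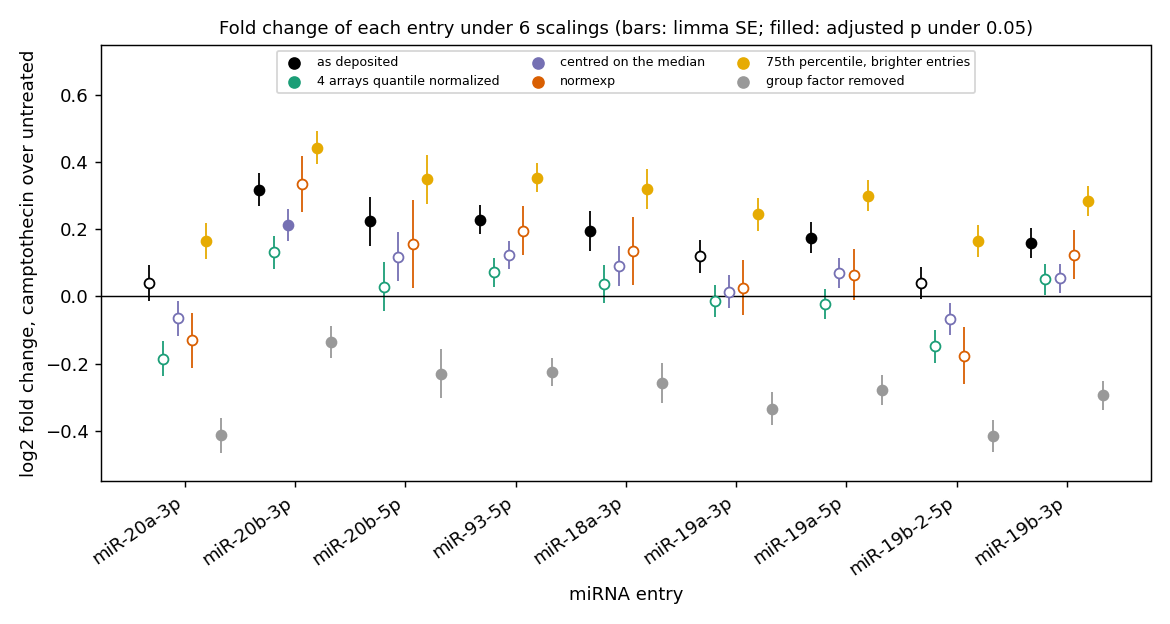
Log2 fold change of camptothecin over untreated (y axis; bars are limma's SE) of each of the 9 entries (x axis) under 6 scalings, with filled points for an adjusted p under 0.05. As deposited (black) 6 points are filled and all lie above 0, under quantile normalization of the 4 arrays (green) none is filled and 4 lie below 0, and with the factor per group taken out (grey) all 9 are filled and below 0.

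Comparing the arms of a hairpin within each array removes any factor of that array. Of 3 member hairpins with both arms measured, miR-19a had a log2 intensity of the 5p entry minus that of the 3p entry of -0.14 and -0.18 on the camptothecin arrays, against -0.20 and -0.24 on the untreated arrays. The difference between the groups was 0.055 ± 0.030 SE, and under quantile normalization of all 4 arrays it turned to -0.0098. It was 0.033 without camptothecin replicate 1 and 0.035 without untreated replicate 2. For miR-20b the values were -0.16 and 0.035 on the camptothecin arrays, against -0.053 and 0.12 on the untreated arrays, which overlap (difference -0.095 ± 0.13 SE). The difference for miR-20b rested on single arrays. It was 0.00036 without camptothecin replicate 1, -0.19 without camptothecin replicate 2, -0.18 without untreated replicate 1 and -0.0070 without untreated replicate 2.

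For miR-19b-2, whose 3p arm is shared with miR-19b-1, they were -0.37 and -0.35 on the camptothecin arrays, against -0.25 and -0.23 on the untreated arrays. Here the gap between groups (-0.12 ± 0.015 SE) was larger than that between replicates, and it was -0.20 under quantile normalization and -0.30 after normexp correction. The change of miR-19b-2-5p was thus lower than that of miR-19b-3p in each of these settings. With 2 arrays against 2, an exact two-sided permutation test cannot go below p = 0.33. That value was reached by miR-19a and miR-19b-2 and not by miR-20b (exact permutation p = 0.667), and the Benjamini-Hochberg values over the 3 hairpins were 0.5, 0.5 and 0.667 for miR-19a, miR-19b-2 and miR-20b.

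**Figure D4:**
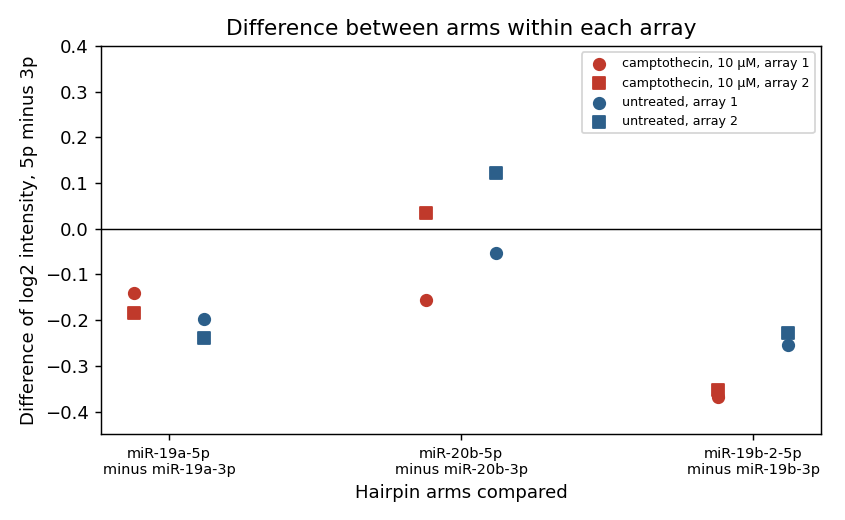
Difference of log2 intensity between the 5p and 3p entries of 3 hairpins (y axis; x axis, hairpin) within each of the 2 camptothecin arrays (red) and 2 untreated arrays (blue), as deposited. Points of the groups are apart for miR-19a and miR-19b-2 and overlap for miR-20b; the height of the points also holds the unequal brightness of the probes, and the small gap of miR-19a turns under quantile normalization of the 4 arrays.

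By arm, 3 of 4 main arms (median log2 fold change 0.19) and 3 of 5 opposite arms (0.18) were called higher as deposited. Of the main arms 1 was among the dimmest 327 entries and of the opposite arms 4, the others being among the next 327. Of all entries in these ranges 61.5% and 39.1% were called higher. By cluster, 2 of 4 entries from chromosome 13 (0.15), 2 of 3 from chromosome X (0.22) and miR-93-5p from chromosome 7 were called higher, beside miR-19b-3p, which 2 clusters encode. These medians differ by less than the range within each cluster, which was 0.040 to 0.20 for chromosome 13 and 0.039 to 0.32 for chromosome X. All 3 entries from chromosome X and 2 of the 4 from chromosome 13 were among the dimmest 327. Arm and cluster were thus mixed with level. As given above, the signs of miR-20a-3p, miR-19a-3p, miR-19a-5p and miR-19b-2-5p turned under quantile normalization of all 4 arrays.

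The other miRNAs of the same clusters, miR-92a, miR-25 and miR-363, had 6 entries, of which 2 were called higher and 1 lower. Over all entries 46.3% were called in either direction and 35.1% as higher. Of the brightest 327 entries, where miR-363-5p lies, 129 were called lower and 61 higher. miR-363-5p, at the 88.9 percentile of level, read 431.3 and 414.9 on the camptothecin arrays, against 546.9 and 522.1 on the untreated arrays, and fell (log2 fold change -0.34 ± 0.054 SE; limma adjusted p = 0.00957), though it did not pass under quantile normalization of all 4 arrays (-0.20; limma adjusted p = 0.0912). miR-363-3p (0.26) and miR-25-5p (0.22) were called higher as deposited and passed neither in that setting nor after normexp (limma adjusted p = 0.343 and 0.283). The 5p minus 3p difference of miR-363 was 1.44 and 1.59 on the camptothecin arrays, against 2.10 and 2.12 on the untreated arrays. The group difference was -0.59 ± 0.078 SE, and -0.28 under joint quantile normalization. Its arms lay far apart in level, with miR-363-3p at the 22.6 percentile. The median log2 fold change was -0.12 over the brightest 327 entries and 0.21 over the dimmest 327. The part of level in the difference of miR-363 was not tested. For miR-25 the group difference was 0.14 ± 0.099 SE. miR-92a-1-5p (0.019), miR-92a-2-5p (0.18) and miR-25-3p (0.078) did not pass.

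Of RefSeq's mature miRNAs with the seed AAAGUGC, 1 entry outside the families was measured, miR-526b-3p of the primate cluster on chromosome 19 (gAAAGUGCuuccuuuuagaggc, chr19:53694443-53694464). It read 122.9 and 132.8 on the camptothecin arrays, against 114.5 and 126.9 on the untreated arrays, and its groups overlapped (log2 fold change 0.084; limma adjusted p = 0.363). No other entry outside the families carried the seed of a measured main arm (AAAGUGC or GUGCAAA) among the 1105 entries matched to RefSeq by name. The seed of the miR-18 family's main arm was not searched.

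The members were poor in G and C. Their share of these bases ran from 34.8% to 56.5%, with a median of 39.1%, against a median of 54.5% over the 1105 matched entries. Across these entries, which share the 4 arrays and are not independent, Spearman's rho was 0.39 between G and C content and level, -0.36 between G and C content and log2 fold change, and -0.53 between level and log2 fold change. The part of base composition in the members' changes was not tested.

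Many entries had the same pattern over the arrays. With likeness measured as the Euclidean distance over the 4 arrays between log2 values centred on each entry's mean, the entries nearest to miR-20b-3p were miR-1185-1-3p (0.016), miR-660-3p (0.024) and miR-4323 (0.028). For miR-18a-3p they were miR-548h-5p (0.021), miR-548ae (0.027) and miR-1243 (0.029), and for miR-19a-5p they were miR-3911 (0.014), miR-4513 (0.016) and miR-4653-5p (0.019). Within a distance of 0.1 lay 117, 136 and 317 entries for the 3 members in that order.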

How the data were processed

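The authors' deposited intensities (Cy5, 1 colour, linear scale) were used as given, 1 value per probe and array. Which scanner and normalization made them is not given in the sources used here. Sorted, the 1308 values are the same on both arrays of a group, which points to quantile normalization by group, and the 75th percentile is 250.2 on all 4. Such a step takes out replicate spread and makes p-values too small. The authors' log2 ratios equal differences of the log2 of these intensities within 5e-10, per the file headers' pairing of arrays. That table supplied probe names, and its 4 other columns of values were not used. log2 intensities were compared with limma 3.58.1 (lmFit, eBayes with trend) in R 4.3.3 (two-sided; Benjamini-Hochberg over the 1308 entries; threshold 0.05). The code was tested on simulated data.

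Members and lists were chosen with earlier results of these data known. Named are all members, entries of miR-92a, miR-25 and miR-363, and entries sharing a measured main arm's seed. Also named are 3 hepatocyte and 5 blood miRNAs and, per family, the 3 entries nearest to the member past the test with the largest change. Alternatives were other scalings, normexp (offset 50), pseudocounts of 16 and 64, a filter on level, other variance models, a replicate block and leaving out single arrays. Taking out the factor per group was chosen after seeing the data.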

Additional observations from a re-analysis of the deposited data

How the results depend on the processing

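The 6 calls among the members became 0 with all 4 arrays quantile normalized together, 1 with each array centred on its median, 0 after normexp correction, 9 (all lower) with the factor per group taken out, and 0 with any 1 array left out. With the 75th percentile taken over entries at or above the median level they became 9, within 1.5 times the count. The 606 calls over all entries became 169 (90 higher, 79 lower), 330 (118 and 212), 191, 1177 (11 and 1166) and 975 (892 and 83) in these scalings, in the order quantile, centring, normexp, factor out and 75th percentile, 267 (125 and 142) when dimmer entries than the median were dropped, which leaves no member, and 1 to 71 with 1 array left out. Only 1 call over all entries was left without untreated replicate 1 and 1 without untreated replicate 2, against 71 without camptothecin replicate 1 and 44 without camptothecin replicate 2; an array fewer leaves 1 residual degree of freedom, and a lone array is assumed to vary like the other group.

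Signs turned under quantile normalization for miR-19a-3p (-0.013), miR-19a-5p (-0.023), miR-19b-2-5p (-0.15) and miR-20a-3p (-0.19), with centring for miR-19b-2-5p (-0.066) and miR-20a-3p (-0.065), and after normexp for miR-19b-2-5p (-0.18) and miR-20a-3p (-0.13). With the factor taken out, log2 fold changes were -0.26 for miR-18a-3p, -0.33 for miR-19a-3p, -0.28 for miR-19a-5p, -0.41 for miR-19b-2-5p, -0.29 for miR-19b-3p, -0.41 for miR-20a-3p, -0.14 for miR-20b-3p, -0.23 for miR-20b-5p and -0.23 for miR-93-5p. Scalings other than quantile and normexp shift all entries alike by construction; otherwise the cause was not tested.

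The replicate numbers share no stated litter, batch or day, so same-numbered arrays are not taken as pairs. Their deviations correlated at -0.072 over entries. With 2 arrays per group this value is the same for both pairs by construction, so it cannot decide the question. With the replicate number as a block, 4 members were called (limma), without miR-18a-3p (adjusted p = 0.053) and miR-19b-3p (adjusted p = 0.056), and 550 entries in all. Without the trend or with robust variance the same 6 members were called, with 611 and 629 entries called in all. With a pseudocount of 16 or 64 it was 5 members, without miR-20b-5p, and 604 and 601 entries in all.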
